A study of Mus musculus with 6 samples.

Results

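The MYC and MAX network is a small family of transcription factors whose members dimerize through a basic helix-loop-helix leucine zipper domain. The 10 genes described here are Myc, Mycn, Mycl, Max, Mga, Mxd1, Mxd3, Mxd4, Mxi1 and Mnt, chosen by name among the 55416 genes of the count table, and all 10 were found and passed the filter on low counts. MYC proteins bind DNA as dimers with MAX, preferentially at the E-box CACGTG, and activate genes of growth, ribosome assembly and metabolism. The MXD proteins, MXI1, MNT and MGA compete for MAX and repress, the MXD proteins and MNT through the SIN3 corepressor and MGA as part of the Polycomb complex PRC1.6, which silences germline genes in mouse embryonic stem cells (mESCs). In pluripotent cells Myc and Mycn are largely redundant, and the fall of MYC activity is known to accompany dormancy of the naïve state.

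Total RNA was sequenced from epiblast-like cells (EpiLCs), the formative cells obtained after 48 h of differentiation of naïve mESCs, in 3 WT and 3 Oct6 KO libraries. WT cells were the 46C line, in which GFP reports the neural gene Sox1, and KO cells were 1 clone derived from it by CRISPR/Cas9 with a homozygous insertion near the start of the coding sequence of Oct6 (Pou3f1), so that any feature private to this clone cannot be told apart from the loss of Oct6. Both groups were plated on fibronectin in N2B27 that contained KSR at 1%, Activin A at 20 ng/ml and bFGF at 12 ng/ml, as the sample labels give them, whereas the series description gives both factors in µg/ml. The replicates are separate differentiations of the same 2 lines, and p-values therefore measure the spread between these cultures.

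Libraries held 10995505 to 14680930 counts, and levels are given as CPM, counts scaled to library size after TMM normalization, and in the order of replicates 1, 2 and 3. Oct6 itself was counted in every library, with 1563 to 2156 counts in WT and 1567 to 1825 in KO EpiLCs, and counts on the gene do not tell transcripts with the insertion from those without. The 8 pluripotent and formative markers summed to 3090 to 3438 CPM in WT and 3144 to 3293 CPM in KO EpiLCs. Of the 8, 4 were called higher, against 11.8% of all genes tested, namely Otx2 (log2 fold change 0.92), Nanog (0.75), Fgf5 (0.65) and Sox2 (0.42). Dnmt3b and Pou5f1, the most abundant of the 8, had −0.19 each and did not pass. With the replicate number as a block, 5 were called higher and 2 lower (Dnmt3b and Pou5f1), where 30.3% of all genes tested were called in either direction. Of 5 trophoblast markers, Cdx2, Gata3 and Elf5 had 0 to 7 counts in each library, and the list summed to 81.1 to 99.3 CPM in WT and 37.5 to 51.1 CPM in KO, carried by Krt8. Tfap2c, the other marker of this list, had a mean of 3.91 CPM in WT and 4.05 CPM in KO (log2 fold change 0.052) and did not pass. The fall of the sum is thus that of Krt8 alone and not of the list. Summed levels were 4.87 to 6.19 CPM in WT and 4.78 to 14.3 CPM in KO for 5 primitive endoderm markers, 5.95 to 6.49 and 8.64 to 11.7 CPM for 4 mesendoderm markers, and 11.04 to 20.2 and 7.15 to 12.4 CPM for 5 fibroblast markers. The mesendoderm sum was carried by Eomes, at a mean of 5.43 CPM in WT and 9.94 CPM in KO. The other mesendoderm markers, T, Mixl1 and Gsc, had 0 to 6 counts per library. Their means were lower in KO (T 0.331 and 0.204, Mixl1 0.370 and 0.186, Gsc 0.121 and 0.0772 CPM in WT and KO). In these lists Gata6 (log2 fold change 1.35, edgeR adjusted p = 0.0121) and Eomes (0.87, edgeR adjusted p = 0.00344) were called higher. Krt8 (−1.04, edgeR adjusted p = 8.57e-06) and Thy1 (−1.22, edgeR adjusted p = 0.0175) were called lower. Gata6 had 16 to 66 and Thy1 12 to 38 counts per library. The part of such cell types in the results was not tested, and in bulk RNA fewer cells of a type and less RNA per cell cannot be told apart. Genes of chromosome 6 had a median log2 fold change of −0.40 and those of chromosome 16 of 0.55, against 0.0014 for all genes tested, which bears on Mxd1 and on several partners named below.

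In KO EpiLCs, Mycn and its partner Max were higher, Myc and Mycl did not pass the test, and none of the 6 antagonists did. Of the 10 genes, 2 passed edgeR's quasi-likelihood test at an adjusted p below 0.1 (Benjamini-Hochberg, over 15746 genes), both higher in KO EpiLCs, where the background was 24.3% of all genes tested, 11.8% higher and 12.5% lower. The share of members called was near this background. The count of genes lower in KO was 0 by edgeR and 0 by DESeq2, and 2 at an unadjusted p below 0.05. DESeq2 also called 2 members, against a background of 19.3%. With the replicate number as a block, which the paired replicates allow, 4 members passed (Mycn and Max higher, Mxd1 and Mxd4 lower), against a background of 30.3%. In the same 4 genes the WT and KO libraries did not overlap, which was also the case for 33.7% of all genes tested (16.6% with KO higher and 17.1% with KO lower).

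**Figure D1:**
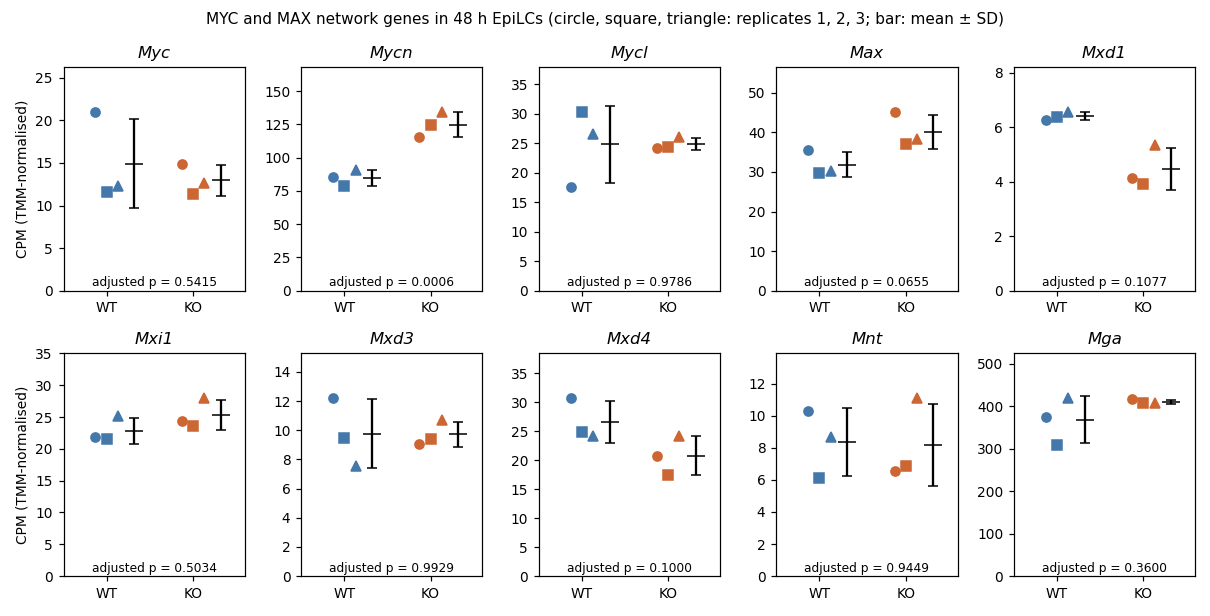
Levels of the 10 network genes in each library, in TMM-normalised CPM on linear axes that start at 0. Circles, squares and triangles are replicates 1, 2 and 3 of WT (blue) and KO (orange) EpiLCs, the black bars are the mean ± SD of 3 libraries, and the adjusted p of edgeR's test stands in each panel. All 3 KO libraries lie above all WT libraries for Mycn and Max and below them for Mxd1 and Mxd4.

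Mycn encodes N-MYC, a MYC protein with known roles in the embryo and in neural progenitors. The gene (ENSMUSG00000037169.16, chromosome 12 of GRCm39, 12986076 to 12992915, minus strand) was at 85.4, 78.8 and 90.7 CPM in the WT libraries and at 116, 124 and 134 CPM in the KO libraries. All KO libraries were higher than all WT libraries, and the lowest KO level exceeded the highest WT level by more than the range within WT. On average Mycn was 1.47-fold higher, at 84.9 ± 5.99 CPM (SD, n = 3) in WT and 125 ± 9.17 CPM in KO EpiLCs (log2 fold change 0.55, standard error 0.10, edgeR adjusted p = 0.000596). It passed in all 12 alternative fits, with log2 fold changes from 0.50 to 0.60, and stood 0.46 above the median of its 40 neighbouring genes tested.

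Max encodes the dimerization partner of the MYC proteins and a partner shared with the antagonists, some of which also pair with MLX. It lies on the same chromosome as Mycn (ENSMUSG00000059436.14, chromosome 12, 76984043 to 77009009, minus strand), and had 35.4, 29.8 and 30.2 CPM in the WT libraries and 45.1, 37.0 and 38.2 CPM in the KO libraries. The groups did not overlap, but the lowest KO library was only slightly above the highest WT library. The log2 fold change was 0.33 (standard error 0.12, edgeR adjusted p = 0.0655), or 1.26-fold. The call on Max was not stable: it was lost without WT replicate 2 (log2 fold change 0.29, edgeR adjusted p = 0.197), without WT replicate 3 (0.29, 0.160) and without KO replicate 1 (0.24, 0.290), and with library totals alone (0.31, 0.1001), over alternatives whose adjusted p ran from 0.0220 to 0.290. Its 40 neighbours had a median of 0.12. A gene model of uncertain type overlaps Max on the same strand with 13 to 27 counts per library.

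Myc encodes c-MYC, an early target of growth signals. The gene (ENSMUSG00000022346.18, chromosome 15, 61857227 to 61862223) had 21.0, 11.6 and 12.2 CPM in the WT libraries and 14.9, 11.3 and 12.6 CPM in the KO libraries. Replicate 1 was the highest library of both groups, and WT replicate 1 stood well above the other 5 libraries. The log2 fold change was −0.21 (standard error 0.20, edgeR adjusted p = 0.542), and it turned to 0.12 without WT replicate 1 (edgeR adjusted p = 0.742). No difference in Myc was detectable beyond the spread of these libraries.

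Mycl, which encodes L-MYC, was the paralog with the smallest difference between group means. Mycl (ENSMUSG00000028654.14, chromosome 4, 122889408 to 122896282) had 17.6, 30.3 and 26.5 CPM in the WT libraries and 24.2, 24.4 and 26.1 CPM in the KO libraries. WT replicate 1, highest for Myc, was the lowest library for Mycl, and the KO libraries fell within the WT range. The log2 fold change was 0.0093 (standard error 0.16, edgeR adjusted p = 0.979), and −0.19 without WT replicate 1.

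The make-up of the MYC paralogs was followed per kb of the union of a gene's annotated exons, so that levels of different genes could be set side by side. Mycn made up 60.9%, 59.9% and 64.6% of the summed MYC paralogs in WT replicates 1 to 3 and 69.1%, 73.1% and 72.9% in KO replicates 1 to 3. The mean share was thus 61.8% ± 2.47 (SD, n = 3) in WT and 71.7% ± 2.22 in KO EpiLCs, 9.89 percentage points apart without overlap. The share of Myc ran from 14.7% to 25.3% in WT and from 11.3% to 15.03% in KO, and that of Mycl from 13.8% to 25.2% and from 15.5% to 15.8%, both with overlap. The level of Mycn over that of Myc was 2.41, 4.02 and 4.39 in WT and 4.60, 6.50 and 6.29 in KO replicates 1 to 3. The high Myc of WT replicate 1 sets the lowest of these ratios. These sums over members are a description and carry no test.

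The 3 MYC paralogs summed to 30.4, 28.5 and 30.4 CPM per kb in WT and 36.3, 36.9 and 39.9 CPM per kb in KO replicates 1 to 3, the KO libraries all above the WT libraries. For the 6 antagonists, sums of 31.5 to 38.9 CPM per kb in WT and 37.0 to 39.8 CPM per kb in KO overlapped. The ratio of summed MYC paralogs to summed antagonists went from 0.783 to 0.906 in WT and from 0.957 to 1.00 in KO without overlap. On CPM without length it was 0.263 to 0.319 in WT and 0.322 to 0.356 in KO, nearly touching. Mga made up 63.8% to 70.3% of the antagonist sum in WT and 66.5% to 71.6% in KO. Mean levels per kb in WT and KO were 18.4 and 27.1 for Mycn, 5.89 and 5.91 for Mycl, and 5.47 and 4.75 for Myc. The ratio thus mostly sets Mycn against Mga. The ratio of MYC paralogs to Max overlapped, at 3.69 to 4.35 in WT and 3.47 to 4.50 in KO.

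**Figure D2:**
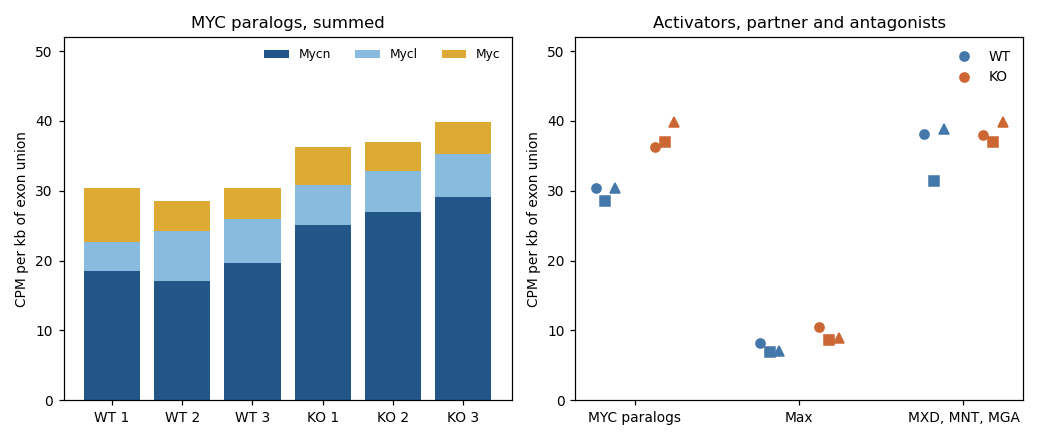
Levels in CPM per kb of exon union. The left panel stacks Mycn, Mycl and Myc in each of the 6 libraries, and the right panel shows the sum of the MYC paralogs, Max and the sum of the 6 antagonists in each library (circle, square and triangle for replicates 1, 2 and 3, WT in blue and KO in orange). KO libraries reach 36.3 to 39.9 for the MYC paralogs against 28.5 to 30.4 in WT, while the antagonists overlap.

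Within WT EpiLCs, Mga had the highest level per kb, 24.0 ± 3.62 CPM per kb (SD, n = 3), followed by Mycn with 18.4 ± 1.30 and Max with 7.39 ± 0.731. Below these came Mycl (5.89), Myc (5.47), Mxd3 (3.54), Mxi1 (3.16), Mxd4 (3.08), Mnt (1.57) and Mxd1 (0.875). Each gene from Max to Mxi1 overlapped the next in this order, whereas the steps from Mga to Mycn, from Mycn to Max, from Mxd4 to Mnt and from Mnt to Mxd1 separated genes whose libraries did not overlap. In KO EpiLCs the order was the same except at the top, where Mycn with 27.1 ± 1.99 and Mga with 26.7 ± 0.359 CPM per kb overlapped. The order depends on the length used: per kb of the canonical transcript, Mycn was first in both groups, at 31.6 against 26.4 for Mga in WT, where they overlapped, and at 46.4 against 29.4 in KO, where they did not.

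Among the antagonists, Mxd1 encodes MAD1, a repressor linked to differentiation. By level per kb it was the lowest member (ENSMUSG00000001156.10, chromosome 6, 86624024 to 86646218, minus strand), with 6.27, 6.39 and 6.56 CPM in the WT libraries and 4.13, 3.93 and 5.34 CPM in the KO libraries. All KO libraries were below the WT libraries, which hardly differed among themselves. Counts were few, 70 to 97 per library in WT and 51 to 71 in KO, so the closeness of the WT levels is no measure of precision. The log2 fold change was −0.52 (standard error 0.22, edgeR adjusted p = 0.108), and with the replicate block it was −0.52 with an edgeR adjusted p of 0.0679. It also passed with library totals alone and without KO replicate 3 (−0.67, edgeR adjusted p = 0.0794), over alternatives whose adjusted p ran from 0.0679 to 0.286. The gene lies in a stretch of chromosome 6 where the 40 neighbouring genes tested had a median of −0.52, so that Mxd1 differed from its surroundings by −0.00075. Of the genes tested on chromosome 6, 46.1% were called lower in KO EpiLCs. Its nearest tested neighbour on one side, Snrnp27, had a log2 fold change of −0.67 (edgeR adjusted p = 0.000312), and the one on the other side, Asprv1, −0.32 (edgeR adjusted p = 0.564).

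Mxd4 encodes another MXD repressor and was the antagonist nearest to the threshold among genes away from chromosome 6. It had 30.8, 24.9 and 24.2 CPM in the WT libraries and 20.7, 17.4 and 24.1 CPM in the KO libraries (ENSMUSG00000037235.14, chromosome 5, 34331227 to 34345240, minus strand). KO replicate 3 was only just below WT replicate 3, and the other KO libraries were clearly lower. The log2 fold change was −0.36 (standard error 0.15) with an edgeR adjusted p of 0.10003, just outside the threshold, which ran from 0.0441 with the replicate block to 0.361 over the alternatives, 5 of 12 of which called it. Among these, it was −0.43 without WT replicate 3 (edgeR adjusted p = 0.0819) and −0.48 without KO replicate 3 (edgeR adjusted p = 0.0579). The 40 genes around Mxd4 had a median of −0.045.

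The remaining antagonists gave no call in any of the 12 alternatives. Mga, a scaffold of PRC1.6 with an additional T-box domain, had 374, 310 and 420 CPM in the WT libraries and 416, 407 and 407 CPM in the KO libraries, a log2 fold change of 0.16 (standard error 0.11, edgeR adjusted p = 0.360). The KO libraries of Mga were almost equal and lay within the wider range of the WT libraries. Mxi1, a relative of Mxd1, had 21.9, 21.5 and 25.2 CPM in WT and 24.4, 23.6 and 28.1 CPM in KO, a log2 fold change of 0.15 (edgeR adjusted p = 0.503). It was higher in KO in all 3 pairs of replicates with the same number, yet the groups overlapped. Mnt, the broadly expressed antagonist, had 6.11 to 10.3 CPM in WT and 6.56 to 11.1 CPM in KO (log2 fold change −0.035, edgeR adjusted p = 0.945). Mxd3, which is expressed in proliferating cells, had 7.58 to 12.2 CPM in WT and 9.07 to 10.7 CPM in KO (log2 fold change −0.0041, edgeR adjusted p = 0.993). Mxd3 overlaps Prelid1 on the opposite strand, which had 1767 to 2339 counts in WT and 2245 to 2369 in KO libraries, and whether counting used the strand is not given in the sources used here, so the Mxd3 level is uncertain.

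**Figure D3:**
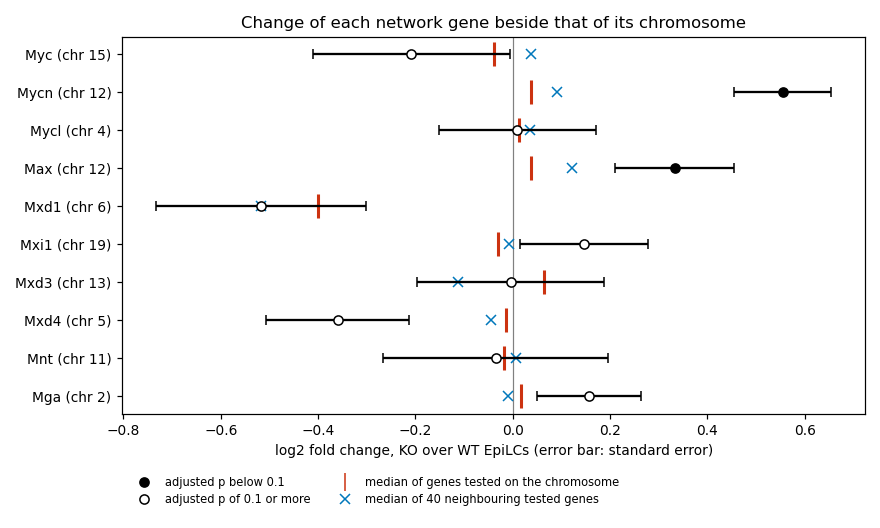
Log2 fold changes of the 10 genes between KO and WT EpiLCs with their standard errors, filled where the adjusted p was below 0.1. The red bar is the median of all genes tested on the same chromosome and the blue cross that of the 40 neighbouring genes tested. Mxd1 at −0.52 falls on the median of its neighbours, and Mycn at 0.55 lies far from its own.

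The promoters of Mycn, Max and Mxd4 are shown because these genes, of the members outside chromosome 6, had KO libraries that did not overlap WT. Each is the 250 bases before the start of the Ensembl canonical transcript in GENCODE M39, read from GRCm39, 5′ to 3′ on the gene's strand. Capitals mark the E-box CACGTG, which reads the same on both strands, and in Mycn the E2F-type motif TTTGGCGC.
Mycn (chr12:12991916-12992165, minus strand): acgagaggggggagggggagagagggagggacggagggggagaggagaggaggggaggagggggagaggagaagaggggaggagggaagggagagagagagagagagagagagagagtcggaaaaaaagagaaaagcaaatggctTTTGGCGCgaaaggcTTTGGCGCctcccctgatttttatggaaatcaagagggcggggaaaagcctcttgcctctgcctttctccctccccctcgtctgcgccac
Max (chr12:77009001-77009250, minus strand): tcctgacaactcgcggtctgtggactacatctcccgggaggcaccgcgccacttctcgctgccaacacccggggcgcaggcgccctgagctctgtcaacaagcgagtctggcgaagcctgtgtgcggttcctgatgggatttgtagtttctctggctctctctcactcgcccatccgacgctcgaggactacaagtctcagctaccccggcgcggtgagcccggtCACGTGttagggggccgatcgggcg
Mxd4 (chr5:34345241-34345490, minus strand): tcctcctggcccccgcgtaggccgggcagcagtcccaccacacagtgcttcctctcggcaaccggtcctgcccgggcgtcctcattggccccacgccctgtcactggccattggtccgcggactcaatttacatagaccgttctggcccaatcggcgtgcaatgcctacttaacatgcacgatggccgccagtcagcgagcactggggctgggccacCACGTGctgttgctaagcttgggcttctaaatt
The Max promoter holds 1 E-box, beginning 25 bases before the start, and that of Mxd4 holds 1, beginning 33 bases before the start. Mxd3 also holds 1, 223 bases before its start. The E-box was thus found in 3 of 10 members, against 7.83% of 13122 promoters of protein-coding genes tested. In the Mycn promoter the motif TTTGGCGC occurs 2 times on the gene's strand, beginning 105 and 90 bases before the start, without overlap. On either strand (TTTGGCGC or GCGCCAAA) it was present in 0.693% of the promoters and in 1 of 10 members, a motif searched after this promoter had been read. The octamer ATGCAAAT of POU factors, searched on both strands, was in no member and in 1.35% of all promoters. A match to letters is a description and not a binding site, and its absence from this window says nothing of the factor elsewhere.

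Over the 6 libraries, the genes whose log2 CPM followed Mycn most closely were Iqcg (Pearson r = 0.997), Trim44 (0.996), Pnma5 (0.994) and Pde8a (0.992), out of 9859 genes with an average log2 CPM of at least 3. All 4 were higher in KO EpiLCs, with log2 fold changes of 0.69, 0.81, 0.55 and 1.81, so that the likeness includes the difference between groups. Iqcg lies on chromosome 16. The points share library and depth, and no test is attached.

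Genes that work with the network were followed in lists. In the parallel arm around MLX, which senses sugar and nutrients, Mlx, Mlxip and Mlxipl had log2 fold changes of 0.035, −0.17 and −0.39. Of the 3, 0 passed by edgeR or by DESeq2, beside backgrounds of 24.3% and 19.3%, nor at an unadjusted p below 0.05. All KO libraries of Mlxipl were below the WT libraries, as for 17.1% of all genes tested. Of 13 MYC coactivators and cofactors, 3 were lower in KO EpiLCs and 0 higher by edgeR (2 lower and 0 higher by DESeq2, and 1 higher at an unadjusted p below 0.05), near the background of 24.3%, with a median of −0.035. The ATPase Ruvbl1 fell from 197 ± 15.4 CPM (SD, n = 3) to 133 ± 7.91 CPM (log2 fold change −0.56, edgeR adjusted p = 0.000434). It lies on chromosome 6, from whose median it differed by −0.16, while its 40 neighbours had a median of −0.62, from which it differed by 0.059. The acetyltransferase Kat5 fell from 60.2 ± 1.94 to 49.9 ± 5.30 CPM (−0.27, edgeR adjusted p = 0.0903), and DESeq2 did not call it (adjusted p = 0.111). The 40 neighbours of Kat5 had a median of −0.22, from which it differed by −0.047. Trrap, the scaffold of MYC-bound acetyltransferases, had a log2 fold change of 0.020 and did not pass.

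Among 10 subunits of the SIN3 corepressor, 9 were tested, Brms1 having too few counts, and 1 was higher and 1 lower, beside the background of 24.3%. Sin3b, a scaffold contacted by MXD proteins, fell from 218 ± 21.4 CPM (SD, n = 3) to 161 ± 4.05 CPM (log2 fold change −0.44, edgeR adjusted p = 0.00375), and Sap30 rose from 52.4 ± 10.6 to 68.7 ± 4.89 CPM (0.39, edgeR adjusted p = 0.0400). The other 7 subunits did not pass, and the other scaffold, Sin3a, had 0.031. Of 9 partners of MGA in PRC1.6, 4 passed, 1 higher and 3 lower, beside backgrounds of 11.8% and 12.5%. L3mbtl2 rose from 225 ± 10.04 to 296 ± 19.9 CPM (0.39, edgeR adjusted p = 0.00586). E2f6, the repressive E2F of the complex, fell from 49.0 ± 1.42 to 37.2 ± 0.608 CPM (−0.40, edgeR adjusted p = 0.0117). Cbx3 and Rybp were lower as well (−0.46 and −0.44), but both lie on chromosome 6, from whose median they differed by −0.061 and −0.044, and from that of their 40 neighbours by 0.066 and −0.14. Away from chromosomes 6 and 16, 1 was higher and 1 lower of 7 tested. The PCGF subunit particular to this complex, Pcgf6, had −0.11 and did not pass.

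MYC proteins are short-lived, and 5 of 11 genes of their turnover passed, 4 higher and 1 lower, beside backgrounds of 11.8% and 12.5%. Away from chromosomes 6 and 16, 2 were higher and 1 lower of 9 tested. Fbxw7, the ubiquitin ligase subunit that recognizes phosphorylated MYC, rose from 75.4 ± 5.70 CPM (SD, n = 3) to 103 ± 6.98 CPM (log2 fold change 0.45, edgeR adjusted p = 0.00364). Usp28, a deubiquitinase that opposes it, rose from 155 ± 17.5 to 252 ± 14.1 CPM (0.70, edgeR adjusted p = 8.6e-05). The nucleolar deubiquitinase Usp36 fell from 40.4 ± 0.933 to 29.4 ± 1.89 CPM (−0.46, edgeR adjusted p = 0.00720). Fbxw7 and Usp28, of opposite action on MYC stability, were thus both higher. Cip2a, which encodes an inhibitor of the phosphatase PP2A, and Gsk3b, which encodes a kinase that marks MYC for degradation, were higher (0.72 and 0.43), and both lie on chromosome 16, where 65.4% of the genes tested were called higher. Relative to the median of chromosome 16 they stood at 0.17 and −0.12, and relative to that of their 40 neighbours at 0.14 and −0.15. The median of the 11 genes was 0.031. Protein levels were not measured in these libraries.

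Of 37 genes known to be activated by MYC, 3 were higher and 2 lower in KO EpiLCs, beside a background of 24.3%, and their median log2 fold change was 0.072 against 0.0014 for all genes tested. In the ribosome biogenesis part, 1 of 18 passed, the nucleolar chaperone Npm1, with 3003 ± 451 CPM (SD, n = 3) in WT and 3758 ± 359 CPM in KO (0.32, edgeR adjusted p = 0.0494) and overlapping libraries. Nucleolin (Ncl) had 0.063, fibrillarin (Fbl) 0.070 and Nop56 0.12, none of which passed. In the nucleotide, polyamine and one-carbon part, 2 of 9 passed and both were lower. Shmt2, the mitochondrial serine hydroxymethyltransferase, fell from 114 ± 11.9 to 80.1 ± 5.98 CPM (−0.51, edgeR adjusted p = 0.00192). Cad, which starts pyrimidine synthesis, fell from 528 ± 24.2 to 403 ± 54.4 CPM (−0.39, edgeR adjusted p = 0.0124). Odc1, the ornithine decarboxylase of polyamine synthesis, had 0.0060. In the growth part, the chaperonin Hspd1 (0.24, edgeR adjusted p = 0.0963) and the transferrin receptor Tfrc (0.65, edgeR adjusted p = 0.000115) were higher, Tfrc being on chromosome 16, 0.10 above its median and 0.068 above that of its 40 neighbours. With the replicate block 11 of 37 passed, 7 higher and 4 lower, near the background of 30.3%. Npm1 and Hspd1 have processed pseudogenes, so that their reads may not all be assigned to the gene itself and the values are uncertain. The same holds for Cbx3.

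Of 7 genes known to be repressed by MYC, 4 were lower in KO EpiLCs by edgeR and by DESeq2, beside a background of 12.5%, and 5 at an unadjusted p below 0.05. The count of higher genes was 0 by edgeR, by DESeq2 and at an unadjusted p below 0.05. The median log2 fold change of the 7 was −0.43. Cdkn1a, the cyclin-dependent kinase inhibitor p21, had 25.8, 23.8 and 18.7 CPM in the WT libraries and 13.9, 10.3 and 10.004 CPM in the KO libraries. Its KO libraries were all below the WT libraries, with a log2 fold change of −0.995 (standard error 0.17, edgeR adjusted p = 0.000322). The related inhibitor Cdkn2b had 26.8, 27.2 and 21.8 CPM in WT and 16.8, 15.7 and 19.3 CPM in KO (−0.55, edgeR adjusted p = 0.01001). Gadd45a, a stress and growth arrest gene, fell from 76.98 ± 7.40 CPM (SD, n = 3) to 48.2 ± 8.60 CPM (−0.67, edgeR adjusted p = 0.000774) and p27 (Cdkn1b) from 60.9 ± 4.22 to 47.6 ± 2.42 CPM (−0.36, edgeR adjusted p = 0.0224). Both are on chromosome 6, and relative to its median Gadd45a stood at −0.27 and Cdkn1b at 0.045. The 40 neighbours of Gadd45a had a median of −0.52, from which it differed by −0.16. Those of Cdkn1b had a median of 0.017, from which it differed by −0.37. Away from chromosomes 6 and 16, 2 of 5 were lower. Ndrg1, Ndrg2 and Thbs1 had 0.41, −0.36 and −0.43 and did not pass, Thbs1 doing so with the replicate block (edgeR adjusted p = 0.00440). Several of these genes answer to other regulators as well, and the part of MYC in these changes was not tested.

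Of 16 germline genes known to be silenced by MGA and PRC1.6 in mESCs, 15 were tested, and 6 were lower and 1 higher in KO EpiLCs, beside backgrounds of 12.5% and 11.8%. Sycp3, which encodes a protein of the synaptonemal complex, had 18.9, 20.1 and 27.0 CPM in the WT libraries and 10.1, 9.72 and 11.1 CPM in the KO libraries (log2 fold change −1.10, standard error 0.16, edgeR adjusted p = 0.000105). The groups were clearly apart. Slc25a31, a germ cell ADP/ATP carrier, had −0.78 (edgeR adjusted p = 0.00254). Its 40 neighbours on chromosome 3 had a median of −0.47, from which it differed by −0.31. Zcwpw1 had −0.68 (edgeR adjusted p = 0.00315), Tex11 −0.58 (edgeR adjusted p = 0.00822) and Taf7l −0.66 (edgeR adjusted p = 0.0317). For Taf7l the WT and KO libraries overlapped. The meiotic cohesin subunit Smc1b was higher, with 14.7, 16.2 and 31.7 CPM in WT and 25.3, 36.9 and 43.9 CPM in KO (0.75, edgeR adjusted p = 0.0247), the groups overlapping. DESeq2 did not call Smc1b (adjusted p = 0.249), and its counts for the list were 5 lower and 0 higher. Dazl and Ddx4, markers of germ cells, had 0.26 and −0.34 and did not pass, Dazl doing so with the replicate block (edgeR adjusted p = 0.0579). The count of called genes was 4 without WT replicate 1 and 4 without KO replicate 3. The median of the 15 genes was −0.13.

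**Figure D4:**
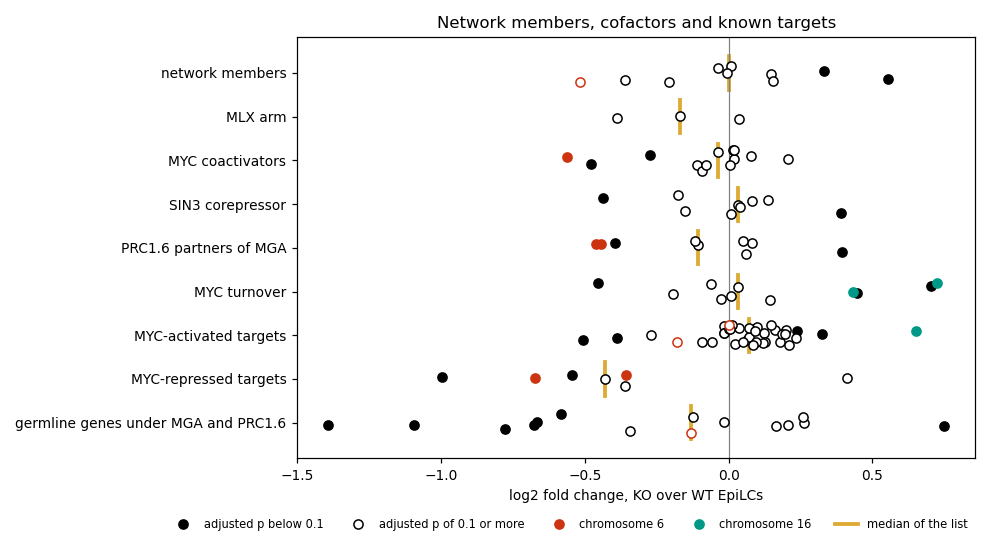
Log2 fold changes between KO and WT EpiLCs for the network members, 5 groups of partners and regulators and 3 groups of known targets. Each point is a gene, filled where its adjusted p was below 0.1, red on chromosome 6 and green on chromosome 16, and the yellow bar is the median of the list. MYC-activated targets gather around a median of 0.072, while MYC-repressed targets have a median of −0.43 with 4 of 7 filled.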

How the data were processed

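RNA-seq counts of 3 WT and 3 Oct6 KO EpiLC libraries were used. The authors trimmed reads with Fastp, mapped them with STAR in two-pass mode to GRCm39 and deposited raw counts per gene, with no normalization or filter. The annotation release, strand setting and STAR version are not given in the sources used here. Identifiers were matched to GENCODE M39 (54749 of 55416), and a symbol shared by several went to the one with most counts (76 cases).

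Genotype was the only term of edgeR 4.0.16 (R 4.3.3, TMM, filterByExpr with a minimum count of 10, quasi-likelihood test, Benjamini-Hochberg over 15746 genes). Genes were called at an adjusted p below 0.1, the threshold that the study used with DESeq2. The minimum fold change that the study also set for its differentially expressed genes was not applied. The test was tried on simulated data with a common dispersion for all genes and no replicate effect, unlike these libraries. Standard errors come from the F statistic and SDs from 3 libraries. Totals of 10995505 to 14680930 counts and a biological coefficient of variation of 11.7% set the precision. Libraries of a group were not copies (chi-square per degree of freedom 6.31 to 10.6). The submitters describe the replicates as paired. Over 13078 genes, deviations of same-numbered libraries correlated at 0.257, 0.298 and 0.122. The replicate block is therefore given where it changes the call of a member or the count of called genes in a list. Levels per kb used the exon union.

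Alternatives were DESeq2 1.42.0, RLE factors, library totals, other filters, the replicate block, each library left out in turn, and a threshold of 0.05 on the adjusted p. The members and lists were chosen with earlier results of these data known. Named are all members, up to 6 called genes per list (smallest p first), the 4 genes most like the member with the smallest p, the tested neighbours of members on chromosomes 6 and 16, and Pou3f1, except for an item that is not reported here. Uncalled list genes, the canonical length and the E2F motif were added after seeing the data.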

Additional observations from a re-analysis of the deposited data

How the results depend on the processing

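Mycn passed in all 12 alternative fits, and Myc, Mycl, Mxi1, Mxd3, Mnt and Mga in none. The members called higher, 2, became 1 with library totals alone and with an adjusted p below 0.05, and 1 to 2 with a library left out (1 without WT replicate 2, WT replicate 3 or KO replicate 1), Max being lost. The members called lower, 0, became 2 with library totals alone (Mxd1 and Mxd4), 1 without a filter on low counts, 2 with the replicate block and 0 to 2 with a library left out (1 without WT replicate 3 and 2 without KO replicate 3). With the replicate block, the MYC-activated targets called went from 5 to 11, and with a library left out the counts were 3 to 5 for these (3 without KO replicate 1), 1 to 2 for SIN3 subunits (1 without WT replicate 1, KO replicate 2 or KO replicate 3) and 4 to 8 for germline genes. The replicate block changed no other total of called genes in a list of partners or targets by over 1.5 times, though germline genes called higher went from 1 to 2. Among the marker lists, it took the pluripotent and formative markers from 4 higher to 5 higher and 2 lower. Fibroblast markers called lower went from 1 to 3, where the background was 30.3%. Values near 0 changed sign: Mycl was −0.013 with library totals alone and Mxd3 0.014 with the replicate block, and leaving out a library gave −0.36 to 0.12 for Myc, −0.19 to 0.17 for Mycl, −0.17 to 0.19 for Mxd3 and −0.32 to 0.14 for Mnt. Less the median of chromosome 6, Mxd1 was −0.12. The difference in the Mycn share was 8.61 percentage points on CPM without length, 8.24 with the canonical transcript length, and 8.93 to 11.3 with a library left out. The cause of these moves was not tested. With 3 libraries a group, the calls on Max, Mxd1 and Mxd4 depended on the setting or on single libraries.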
